A study of Mus musculus with 9 samples.

Results

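Fibro-adipogenic progenitors (FAPs) sorted from glycerol-injured muscle were compared directly with adipose stromal cells (ASCs) sorted from subcutaneous adipose tissue (ScAT), over every gene with a mean value of at least 10 across the 6 libraries of these groups. The rule used no fold change and kept 13408 of the 26214 genes in the authors' table of normalized counts, and the comparison used 6 of the 9 libraries, 3 of injured FAPs and 3 of ASCs. The cells came from male C57Bl/6 J mice aged 8 to 12 weeks, 1 day after an injection into the quadriceps. Injured FAPs came from quadriceps given glycerol (Gly, 50% in saline), and ASCs from the ScAT of mice given NaCl. Both were sorted magnetically as the CD45-/CD31-, Sca-1+ cells of the stromal vascular fraction, with cells of 3 animals pooled. The study describes the triplicates of a cell type as made from such a pool, to cover variation between individuals, and calls its replicates biological. Whether each library had a pool of its own is not spelled out. FAPs from NaCl-injected muscle (2 libraries) enter the fit, and so its SE and adjusted p, and are otherwise given as values only. A library of CD31+CD45+ muscle cells (1 library) is outside the fit and serves for the levels of marker genes and to find genes that are highest in it. Tissue of origin, injection and digestion enzymes (collagenase B with dispase II for muscle, collagenase NB4 with DNase for ScAT) changed together between ASCs and injured FAPs. From these groups alone their parts in a difference cannot be told apart. The FAP libraries share tissue and digestion with injured FAPs and the NaCl injection with ASCs. Their values are given beside part of the genes, and the parts of injury and tissue were not tested.

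FAPs are the PDGFRA-positive mesenchymal cells of the muscle interstitium, which support satellite cells during repair and can form fibroblasts and adipocytes. ASCs are their counterpart in fat and include committed preadipocytes and the Dpp4- and Pi16-expressing progenitors of the adipose interstitium. Stromal cells keep patterning transcription factors that mark the body site they come from, and cells that enter division transcribe replication genes through E2F sites and mitotic genes through CCAAT boxes and the CHR element TTTGAA.

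Injured FAPs and ASCs differed at about every other tested gene, with near equal numbers in each direction under the authors' scaling. A gene was called when limma with Benjamini-Hochberg adjustment over all 13408 genes gave an adjusted p under 0.05 and the log2 fold change passed 0.58. On this rule 6855 genes were called (51.1%), of which 3351 were higher in injured FAPs (25.0% of those tested) and 3504 lower (26.1%). With only the 6 compared libraries in the fit 6823 were called, 3332 higher and 3491 lower. The median log2 fold change was 0.02 and the median size of change 0.65. All 3 libraries of each group lay apart, with no overlap, at 9703 genes (72.4%). Libraries of the same group were 0.472 to 0.640 apart for ASCs, and 0.286 to 0.370 for the injured group, as the root mean square log2 difference over tested genes, against 1.37 to 1.63 between groups.

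These counts depend on the scaling. The 100 most abundant genes of each library took 40.3 to 43.1% of the ASC values and 24.7 to 26.1% of the injured FAP values. With every library scaled to a common total the median log2 fold change moved to 0.71 and the calls to 7287 higher and 1699 lower, so that 81.1% of called genes were higher. With 75th percentile scaling the median was 0.14, with 3941 higher and 3102 lower. The libraries were close in depth, with 27349184 to 27481573 counted reads per ASC library, and 26698572 to 27028114 per injured FAP library. A level of 3 reads, taken as the floor, equals a value of 3.40 to 3.95 in ASC libraries, or 2.29 to 2.35 where FAPs were injured, and covers counting error only, since reads copied by PCR cannot be told from others without molecular barcodes. Where the mean of a group was at or under the floor, the fold is given as a lower bound.

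**Figure D1:**
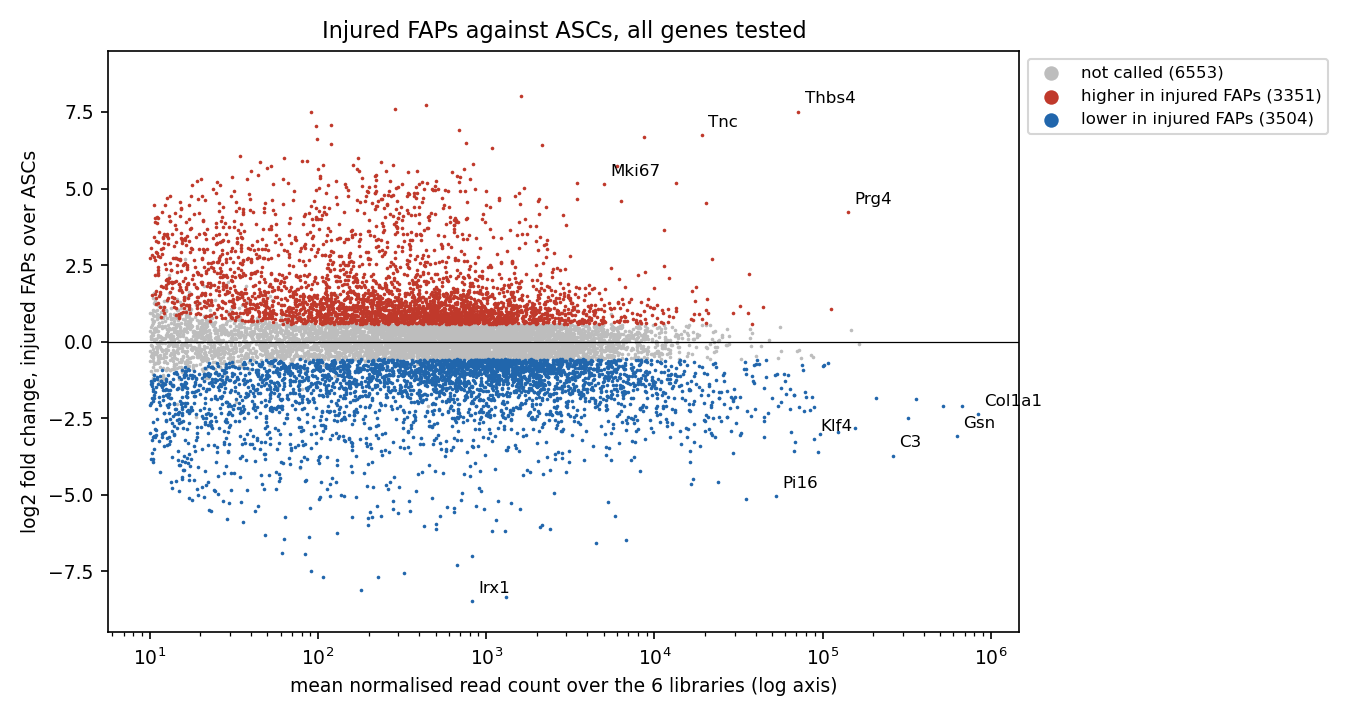
Injured FAPs over ASCs as log2 fold change (vertical axis) by mean value over the 6 libraries (horizontal axis, normalized reads on a log scale), 1 point per tested gene. Called genes are coloured: 3351 higher and 3504 lower of 13408.

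The balance of calls moved with the level of the genes. Of the 6150 genes with a mean value from 100 to 1000, 1842 were higher and 1286 lower. Among the 387 genes at 10000 or more only 41 were higher against 221 lower, with a median of -0.88. Of the 100 most abundant genes, 8 were higher and 74 lower, with a median of -1.52. A log2 change beyond 4 was reached by 247 genes upward and 160 downward.

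The genes were also read in 36 lists of known function, 711 of whose 796 genes were tested. The filter takes the mean over both groups, so a gene near 0 in 1 group enters only through the group where it is high. Genes with a mean of at least 10 in each group are called shared, and in pairs of counts the higher genes come first. Cell division, DNA replication and tendon and cartilage lists held mostly genes higher in injured FAPs. The Dpp4-type progenitor, complement, basement membrane, steroid enzyme and immediate early lists held mostly genes lower in them, under the authors' scaling.

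**Figure D2:**
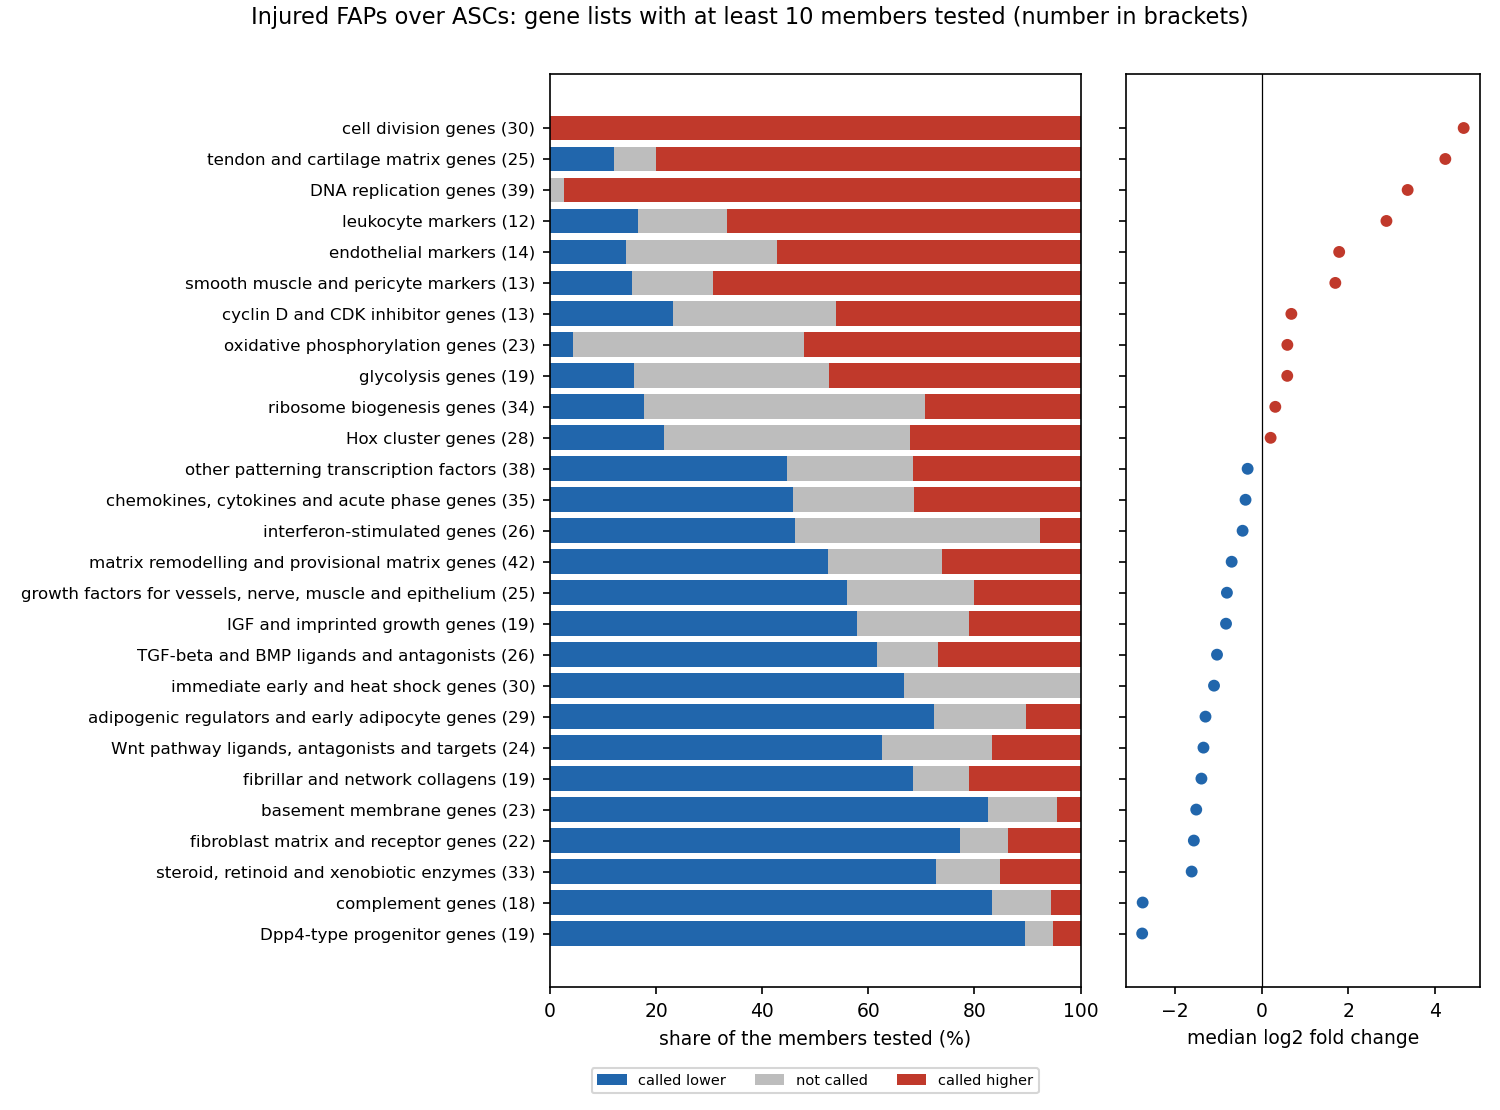
For each list with at least 10 tested genes, the percentage of tested genes called lower, not called and called higher in injured FAPs against ASCs (bars), and the median log2 fold change (points). Medians ran from 4.66 in cell division genes to -2.76 in Dpp4-type progenitor genes, against 0.02 over all genes.

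Most of the markers used for sorting and cytometry differed in level. Of the 7 genes, 2 were higher, 3 lower and 2 not called, with a median of 0.24 (0.02 over all genes), or 3 and 1 at a common total (0.94). The called share was 71.4% beside 51.1% over all genes, and of the 6 shared genes 1 was higher and 3 lower. Cd34, a sialomucin of progenitor cells, had values of 55027, 42885 and 54644 in the ASC libraries, 11933, 10736 and 11553 in the injured FAP libraries and 32892 and 30696 in the FAP libraries. Ly6a, which encodes Sca-1, had 46513, 49855 and 36777 in the ASC libraries, 24309, 21308 and 24855 in the injured FAP libraries and 16542 and 10823 in the FAP libraries. Pdgfra, the PDGF receptor that defines FAPs, had 10837, 15083 and 13043 in the ASC libraries, 23649, 25268 and 23236 in the injured FAP libraries and 17754 and 17756 in the FAP libraries. Injured FAPs lay below every ASC library for Cd34 and Ly6a and above every one for Pdgfra, with log2 fold changes of -2.15 (SE 0.12, adjusted p = 2.30e-07), -0.91 (SE 0.17, adjusted p = 8.65e-04) and 0.90 (SE 0.12, adjusted p = 9.79e-05). Thy1, a surface glycoprotein of fibroblasts, had values of 15999, 14381 and 17583 in the ASC libraries and 9972, 9284 and 8589.7 in the injured FAP libraries. It was lower in all 3 injured FAP libraries, at -0.78 (SE 0.11, adjusted p = 9.39e-05). Ly6a and Thy1 were not called under quantile normalization (-0.03 and -0.20) or scaling to a common total (-0.21 and -0.08).

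Pdpn, a mucin-type glycoprotein of migrating stromal cells, was at 23063, 13771 and 13192 in the ASC libraries, 19613, 19007 and 18419 in the injured FAP libraries and 2858 and 2697 in the FAP libraries. The injured FAP values lay inside the ASC range and the gene was not called (log2 fold change 0.24, SE 0.18, adjusted p = 0.271), though it was called under quantile normalization (0.96) and scaling to a common total (0.94). Ptprc, which encodes CD45, was at 0, 1.1 and 0 in the ASC libraries and 11.8, 55.8 and 9.9 in the injured FAP libraries, at least 6.97-fold higher in the latter (adjusted p = 0.00115). It reached its highest value in injured FAP replicate 2, and without that library its bound was 2.93 and it fell under the filter, which left 1 marker higher and 3 lower, with a median of -0.27. Pecam1, which encodes CD31, was at 83, 46.4 and 67.8 in the ASC libraries, 192, 269 and 121 in the injured FAP libraries and 195 and 0 in the FAP libraries, and was not called in the fit with 8 libraries (log2 fold change 1.51, SE 1.42, adjusted p = 0.365). With only the 6 compared libraries in the fit it was called at the same fold, and 3 of the markers were higher.

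Genes of the fibroblast matrix and its receptors were mostly lower in injured FAPs. Of 22 tested genes of 23, 3 were higher, 17 lower and 2 not called, with a median of -1.57 beside 0.02 over all genes. Gsn, an actin-severing protein abundant in fibroblasts, was read at 1249228, 986870.5 and 1156654 in the ASC libraries and 143378, 119789 and 133908 in the injured FAP libraries. Serping1, the inhibitor of complement C1, was read at 262086, 181517 and 213230.3 in the ASC libraries and 29110.2, 28016 and 27296 in the injured FAP libraries. Col1a1, the alpha 1 chain of type I collagen, was read at 1554055, 1204981 and 1467588 in the ASC libraries and 275672, 292925 and 244326 in the injured FAP libraries. For all 3 genes the highest injured FAP library stayed under the lowest ASC library, with -3.09 (SE 0.21, adjusted p = 6.73e-07) for Gsn, -2.94 (SE 0.15, adjusted p = 1.38e-07) for Serping1 and -2.37 (SE 0.23, adjusted p = 9.64e-06) for Col1a1. Fbln2, a matrix protein that binds fibronectin, had 29810.5, 26475 and 26433 in the ASC libraries and 60805, 60721 and 60026 in the injured FAP libraries, and rose without overlap (log2 fold change 1.14, SE 0.11, adjusted p = 7.98e-06). Bgn, a small proteoglycan that binds collagen, had 89018, 60869.7 and 70052 in the ASC libraries and 159819, 152357 and 146463 in the injured FAP libraries, and rose as well (log2 fold change 1.08, SE 0.17, adjusted p = 2.69e-04). Under quantile normalization the list held 5 higher and 9 lower genes and its median was -0.19, with Col1a1 at -0.14 and not called, and at a common total 5 and 12 (-0.87).

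The genes that mark Dpp4-type progenitors were lower in injured FAPs almost throughout. Of 19 tested genes, 17 were lower, 1 higher and 1 not called, with a median of -2.76. Dpp4, a surface peptidase, had 16547, 14086 and 15958 in the ASC libraries, 967, 749 and 766 in the injured FAP libraries and 1749.6 and 1761 in the FAP libraries. Pi16, a peptidase inhibitor of interstitial fibroblasts, had 124419, 75929 and 108050.1 in the ASC libraries, 3313, 2971 and 2854 in the injured FAP libraries and 16689 and 19305 in the FAP libraries. Bmp7, a ligand of the BMP family, had 2944, 2396 and 4008 in the ASC libraries, 76.9, 66.6 and 62.5 in the injured FAP libraries and 204 and 298 in the FAP libraries. All ASC libraries stood above all injured FAP libraries, with log2 fold changes of -4.24 (SE 0.11, adjusted p = 3.81e-09), -5.05 (SE 0.17, adjusted p = 1.13e-08) and -5.46 (SE 0.20, adjusted p = 2.44e-08). Opcml, a cell adhesion molecule, fell from 1923, 1279.8 and 2516 in ASCs to 36.1, 39.5 and 46.5 in injured FAPs (log2 fold change -5.47, SE 0.22, adjusted p = 3.21e-08). Tubb3, a beta tubulin known from neurons, was the 1 member that rose, with 374, 292 and 329 in the ASC libraries and 1106, 1049 and 894 in the injured FAP libraries and no overlap (log2 fold change 1.61, SE 0.13, adjusted p = 2.86e-06). Some genes are counted in several lists, among them Serping1 (also complement), Bmp7 (also BMP ligands), Col1a1 and Col3a1 (also collagens) and Nid1 (also basement membrane).

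Adipogenic regulators and genes of early adipocytes were also mainly lower. Of 29 tested genes, 3 were higher, 21 lower and 5 not called, with a median of -1.30 (-0.60 at a common total, with 5 higher and 14 lower). Pparg, the nuclear receptor that drives adipocyte differentiation, had 404, 416 and 517 in the ASC libraries, 42.4, 27.9 and 31.3 in the injured FAP libraries and 222 and 161 in the FAP libraries. Apoe, a lipid transport protein, had 12216, 9157 and 8379.6 in the ASC libraries and 758, 1032 and 848 in the injured FAP libraries. Cebpb, an early transcription factor of adipogenesis, had 26572, 21780.0 and 22314 in the ASC libraries and 10414, 9053 and 9171 in the injured FAP libraries. Each of these stood lower in all injured FAP libraries, at -3.69 (SE 0.21, adjusted p = 2.07e-07), -3.49 (SE 0.16, adjusted p = 6.41e-08) and -1.30 (SE 0.12, adjusted p = 5.81e-06). Cxcl14, a chemokine of stromal cells, went the other way, with 15051, 10679 and 14626 in the ASC libraries and 27582, 31016 and 23458 in the injured FAP libraries (log2 fold change 1.03, SE 0.15, adjusted p = 1.61e-04). Fabp5, a fatty acid binding protein, also rose, from 39.5, 27.2 and 45.2 in ASCs to 133, 161 and 116 in injured FAPs (log2 fold change 1.86, SE 0.24, adjusted p = 6.42e-05).

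Markers of mature adipocytes were low in ASCs and near 0 in injured FAPs. Of the 12 genes, 11 had a lower mean in injured FAPs and 1 was at 0 in both groups. The 6 tested genes were all called lower, but 5 of them reached a mean of 10 in ASCs only, so the filter chose them by the group where they were high. The summed value of the list was 1419, 1105 and 1921 in ASCs, 41.6, 52.7 and 13.7 in injured FAPs and 130.3 and 148 in FAPs, with Car3 as the most abundant member in ASCs. Car3, a carbonic anhydrase of fat and muscle, had 894, 709 and 1509 in the ASC libraries and 25.9, 25.6 and 8.4 in the injured FAP libraries. Plin4, a lipid droplet coat protein, had 223, 224 and 235 in the ASC libraries and 7.1, 11.6 and 2.3 in the injured FAP libraries. Both fell without overlap, at -5.71 (SE 0.40, adjusted p = 9.34e-07) and -5.04 (SE 0.42, adjusted p = 2.78e-06). Adipoq, the adiponectin gene, was at 44.8, 44.2 and 37.7 in the ASC libraries and 1.6, 0.8 and 0 in the injured FAP libraries, at least 18.2-fold lower in injured FAPs (adjusted p = 9.57e-05). Lep and Retn were at 0 in all 3 injured FAP libraries. How far carried-over adipocyte RNA took part in these differences was not tested.

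Genes of body position separated the groups sharply at single members. Of 28 tested Hox cluster genes of 39, 9 were higher, 6 lower and 13 not called, with a median of 0.20 (0.90 at a common total, with 16 higher and 4 lower). The called share was 53.6% beside 51.1% over all genes, and of the 23 shared genes 8 were higher and 3 lower. Hoxd13, the most 5' gene of the HoxD cluster and a factor of distal limb, was at 0 in all 3 ASC libraries, at 78.5, 46.5 and 80.1 in injured FAPs and at 90.3 and 117 in FAPs. This made it at least 18.4-fold higher in injured FAPs, with no overlap (adjusted p = 2.57e-07). Hoxa9, a factor of posterior identity, had 72.5, 152 and 110.5 in the ASC libraries and 354, 255 and 314 in the injured FAP libraries, and rose (log2 fold change 1.51, SE 0.24, adjusted p = 2.89e-04). Hoxc8, a factor of the thoracic region, had 592, 633 and 673 in the ASC libraries and 396, 371 and 365 in the injured FAP libraries, and fell (log2 fold change -0.74, SE 0.11, adjusted p = 2.02e-04), but was at -0.04 and not called at a common total. Hoxc10, the most abundant gene of the list, had 1149, 1154 and 1267 in the ASC libraries and 1801, 1667 and 1724 in the injured FAP libraries, without overlap and without a call (log2 fold change 0.54, SE 0.09, adjusted p = 3.16e-04). It was called under quantile normalization (0.66), 75th percentile scaling (0.66), scaling to a common total (1.24) and edgeR (0.62), and without ASC replicate 3 (0.59).

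Other patterning transcription factors held some of the largest falls. Of 38 tested genes of 48, 12 were higher, 17 lower and 9 not called, with a median of -0.33, which turned to 0.37 at a common total (17 higher, 8 lower). Irx1, an Iroquois homeobox factor, had 1971, 1558 and 1394 in the ASC libraries, 8.6, 0.8 and 4.6 in the injured FAP libraries and 13.3 and 16 in the FAP libraries. Its neighbour Irx2 had 856, 831 and 829.8 in the ASC libraries, 13.3, 13.2 and 9.9 in the injured FAP libraries and 17.1 and 27.3 in the FAP libraries. Irx5, of the second Iroquois cluster, had 532, 813 and 696 in the ASC libraries, 14.1, 24 and 14.5 in the injured FAP libraries and 25.7 and 32 in the FAP libraries. The 3 genes were high in every ASC library and low in every muscle library, with log2 fold changes of -8.47 (SE 0.50, adjusted p = 2.95e-07), -6.01 (SE 0.22, adjusted p = 2.38e-08) and -5.22 (SE 0.25, adjusted p = 9.26e-08). Leaving out injured FAP replicate 1 moved Irx1 to -9.01 and leaving out replicate 2 moved it to -7.79. Osr2, a zinc finger factor of limb and joint mesenchyme, fell from 12183, 13608 and 14930.2 in ASCs to 1065, 884 and 824 in injured FAPs (log2 fold change -3.88, SE 0.11, adjusted p = 7.37e-09).

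Another set of factors was high in muscle. Meox1, a homeobox factor of the somites, had 67.2, 126 and 113 in the ASC libraries, 1951, 1744 and 1715 in the injured FAP libraries and 5730.1 and 5511 in the FAP libraries. Six2, a homeobox factor of connective tissue, had 9.2, 18.1 and 15.1 in the ASC libraries, 225, 169.7 and 169 in the injured FAP libraries and 138 and 168 in the FAP libraries. Tbx4, the T-box factor of the hindlimb, had 30.3, 29.4 and 20.1 in the ASC libraries, 262, 261 and 253 in the injured FAP libraries and 509.7 and 662 in the FAP libraries. Injured FAPs exceeded every ASC library at all 3 genes, at 4.18 (SE 0.20, adjusted p = 7.59e-08), 3.68 (SE 0.26, adjusted p = 9.57e-07) and 3.26 (SE 0.19, adjusted p = 2.85e-07).

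Genes of tendon and cartilage matrix were mostly far higher in injured FAPs. Of 25 tested genes of 29, 20 were higher, 3 lower and 2 not called, with a median of 4.24. Of the 19 shared genes 14 were higher and 3 lower. Thbs4, a thrombospondin of tendon and injured tissue, had 859, 777 and 719 in the ASC libraries, 144210.0, 145137 and 139812 in the injured FAP libraries and 115741 and 109172 in the FAP libraries. Prg4, the lubricin of joint and tendon surfaces, had 18198, 22589 and 6419 in the ASC libraries, 231493, 367236 and 207288 in the injured FAP libraries and 92344 and 46732 in the FAP libraries. Kera, a proteoglycan of tendon and cornea, had 44.8, 47.6 and 50.2 in the ASC libraries, 4211, 4823 and 3640.4 in the injured FAP libraries and 6672 and 9200.0 in the FAP libraries. In each case the lowest injured FAP library was above the highest ASC library, with 7.51 (SE 0.10, adjusted p = 4.05e-11) for Thbs4, 4.24 (SE 0.44, adjusted p = 1.37e-05) for Prg4 and 6.44 (SE 0.14, adjusted p = 1.86e-09) for Kera. Col11a1, a cartilage collagen chain, rose from 27.7, 13.6 and 10 in ASCs to 1521, 1565 and 1392 in injured FAPs, with 1933 and 2359.5 in FAPs (log2 fold change 6.49, SE 0.28, adjusted p = 5.14e-08). Chad, a cartilage leucine-rich protein, rose from 0, 28.3 and 60.3 to 3305, 3284 and 2975 (log2 fold change 8.03, SE 1.16, adjusted p = 1.44e-04), and its fold moved to 6.23, 8.67 and 9.20 without ASC replicate 1, 2 and 3.

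Not all genes of this list went upward. Sox9, the master factor of cartilage, had 3638, 2653 and 3904 in the ASC libraries and 1031, 837 and 821 in the injured FAP libraries. Ogn, a small proteoglycan of bone and tendon, had 39853, 30510.2 and 43186 in the ASC libraries and 10238, 10158 and 10965 in the injured FAP libraries. Both were lower in every injured FAP library, at -1.91 (SE 0.15, adjusted p = 1.99e-06) and -1.84 (SE 0.13, adjusted p = 9.91e-07).

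**Figure D3:**
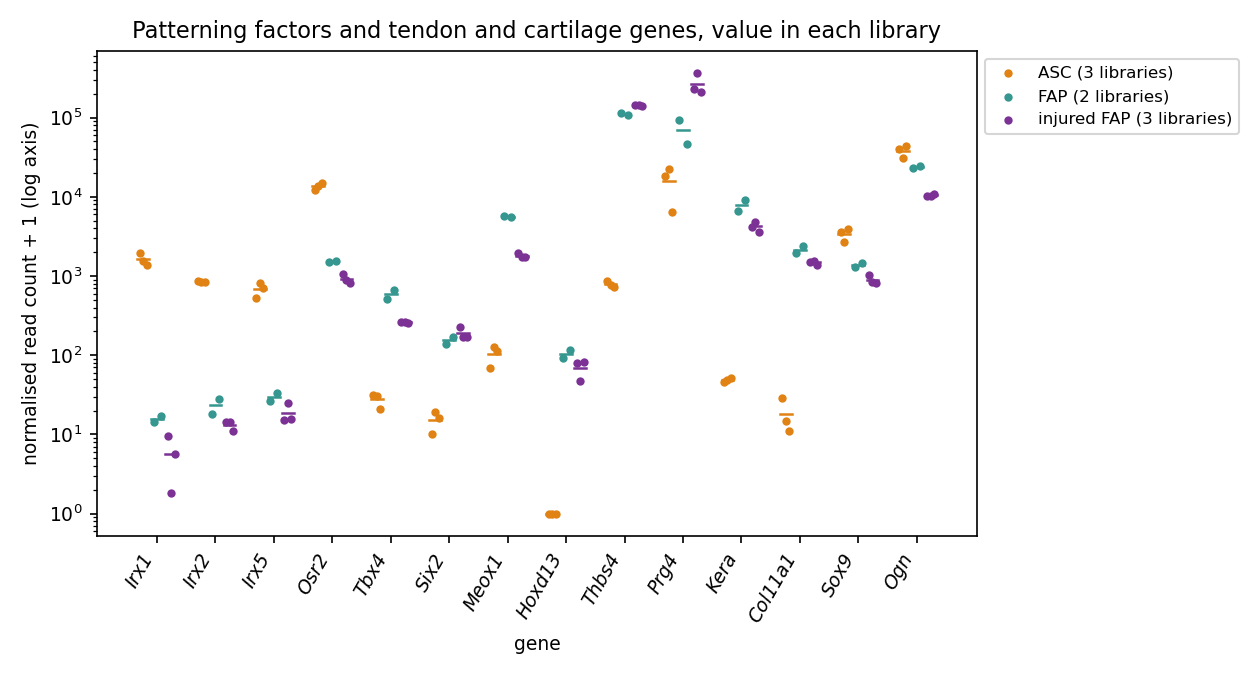
Value plus 1 (vertical axis, normalized reads on a log scale) of patterning and tendon genes in each library of ASCs, FAPs and injured FAPs, with a dash at the group mean. Injured FAPs over ASCs, the log2 fold change ran from -8.47 (Irx1) to 7.51 (Thbs4).

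Collagens outside the tendon list mostly fell, while network collagens of type VIII rose. Of 19 tested genes, 4 were higher, 13 lower and 2 not called, with a median of -1.39. Under quantile normalization, which gives the most abundant genes of each library the same values, the counts were 5 and 8 with a median of -0.14, and at a common total 4 and 10 (-0.70). Of the 17 shared genes 2 were higher and 13 lower. Col3a1, the type III collagen chain, had 926328, 1132275 and 1217419 in the ASC libraries and 237506, 279893 and 249445 in the injured FAP libraries. Col8a1, a short-chain collagen of vessel and injured matrix, had 292, 163 and 222 in the ASC libraries, 10813, 12289 and 12013 in the injured FAP libraries and 4062 and 3954 in the FAP libraries. Col3a1 was lower in every injured FAP library (log2 fold change -2.09, SE 0.21, adjusted p = 1.28e-05) and Col8a1 higher in every one (log2 fold change 5.73, SE 0.17, adjusted p = 7.82e-09). The direction of Col3a1 turned under quantile normalization, to 0.0713.

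Basement membrane genes were mostly lower under the authors' scaling. Of 23 tested genes of 24, 1 was higher, 19 lower and 3 not called, with a median of -1.51. Nid1, the laminin-binding nidogen, was the most abundant of the list in ASCs. It had 148436, 126329.9 and 160484 in the ASC libraries and 34961, 31331 and 32534 in the injured FAP libraries. Col4a5, a type IV collagen chain, had 6791, 5981 and 7968 in the ASC libraries and 956, 860.2 and 922 in the injured FAP libraries. Lamb3, the beta chain of epithelial laminin 332, had 395, 265 and 416 in the ASC libraries and 17.3, 17.8 and 16 in the injured FAP libraries. All 3 fell without overlap, at -2.13 (SE 0.13, adjusted p = 4.30e-07), -2.91 (SE 0.11, adjusted p = 2.56e-08) and -4.29 (SE 0.21, adjusted p = 9.26e-08). Lama3, the alpha chain of the same laminin, was the 1 gene that rose, with 7.9, 6.8 and 11.3 in the ASC libraries and 79.2, 70.5 and 74.7 in the injured FAP libraries (log2 fold change 2.997, SE 0.23, adjusted p = 1.68e-06). The list held 2 higher and 12 lower genes both under quantile normalization (median -0.62) and at a common total (-0.81), and 2 and 18 without ASC replicate 1. Of the 22 shared genes 0 were higher and 19 lower.

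Genes of matrix remodelling and provisional matrix moved both ways. Of 42 tested genes of 45, 11 were higher, 22 lower and 9 not called, with a median of -0.70 that moved to 0.00 at a common total (14 higher, 16 lower). Tnc, the tenascin of wounds and tendon, had 440.0, 470.0 and 215 in the ASC libraries, 34782, 39569 and 39751 in the injured FAP libraries and 9424 and 10069 in the FAP libraries. Spp1, the matrix cytokine osteopontin, had 35.6, 10.2 and 2.5 in the ASC libraries and 1186, 1545 and 1367 in the injured FAP libraries. Mmp9, a gelatinase, had 21.1, 6.8 and 22.6 in the ASC libraries and 88.7, 149 and 118 in the injured FAP libraries. Each was higher in all injured FAP libraries than in any ASC library, at 6.74 (SE 0.24, adjusted p = 2.05e-08), 6.91 (SE 0.64, adjusted p = 6.15e-06) and 2.87 (SE 0.57, adjusted p = 0.00119), and Spp1 moved to 7.76 without ASC replicate 1 and 6.07 without ASC replicate 3. Fn1, the fibronectin gene and the most abundant of the list, had 583124, 415413 and 645177 in the ASC libraries, 99204, 100039.9 and 87044 in the injured FAP libraries and 94114 and 106576 in the FAP libraries. Plat, the tissue plasminogen activator, had 33949.6, 21914 and 28861 in the ASC libraries and 3258, 2834 and 3489 in the injured FAP libraries. Both fell without overlap, at -2.50 (SE 0.20, adjusted p = 1.96e-06) and -3.13 (SE 0.15, adjusted p = 8.37e-08). Mmp2, another gelatinase, fell from 120902, 83239 and 113801 to 22258, 23559.6 and 22422 (log2 fold change -2.20, SE 0.15, adjusted p = 6.96e-07), and its inhibitor Timp2 from 210365, 115999 and 193516 to 22184, 19968 and 19664 (log2 fold change -3.03, SE 0.21, adjusted p = 7.10e-07).

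Chemokines, cytokines and acute phase genes split by member. Of 35 tested genes of 38, 11 were higher, 16 lower and 8 not called, with a median of -0.38. The median turned to 0.31 under quantile normalization (13 higher, 11 lower) and 0.32 at a common total (17 and 7), and 7 to 13 genes were higher and 12 to 17 lower with 1 library left out. Of the 32 shared genes 8 were higher and 16 lower. Cxcl5, a neutrophil-attracting chemokine, had 1234, 1378 and 217 in the ASC libraries, 24537, 25243 and 28574 in the injured FAP libraries and 8.6 and 42.3 in the FAP libraries. Saa3, an acute phase protein of stroma and macrophages, had 26.3, 127 and 28.9 in the ASC libraries and 359, 863 and 508 in the injured FAP libraries. Cxcl13, a B cell chemokine, had 4026, 8308 and 2432 in the ASC libraries and 183, 168 and 86.9 in the injured FAP libraries. No ASC value reached the injured FAP values of Cxcl5 and Saa3, and the reverse held for Cxcl13, with log2 fold changes of 5.18 (SE 0.68, adjusted p = 7.21e-05), 3.52 (SE 0.54, adjusted p = 2.05e-04) and -4.95 (SE 0.43, adjusted p = 3.83e-06). Cxcl5 moved to 4.32 without ASC replicate 3, and Saa3 to 4.24 without ASC replicate 2. Cxcl9, an interferon-induced chemokine, fell from 2280.3, 2052 and 2325 to 385, 285 and 324 (log2 fold change -2.75, SE 0.14, adjusted p = 1.08e-07). Il1b, a cytokine made mainly by myeloid cells, was at 1.3, 0 and 2.5 in the ASC libraries and 43.9, 283 and 38.9 in the injured FAP libraries, at least 32.9-fold higher in the latter (adjusted p = 1.80e-04), with its highest value in injured FAP replicate 2. Without that library the bound was 11.2, and the fit moved from 5.31 to 4.40.

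Interferon-stimulated genes were called about as often as all genes, and those called were mostly lower under the authors' scaling. Of 26 tested genes, 2 were higher, 12 lower and 12 not called, with a median of -0.44, which turned to 0.25 at a common total (11 higher, 4 lower). The called share was 53.8% beside 51.1% over all genes. Gbp2, an interferon-induced GTPase, had 11219, 8495 and 10327 in the ASC libraries and 1444, 1241 and 1499 in the injured FAP libraries. Ifit1, an antiviral RNA-binding protein, had 9849, 3664 and 4886 in the ASC libraries and 1055, 773 and 928 in the injured FAP libraries. Both fell without overlap, at -2.84 (SE 0.12, adjusted p = 3.75e-08) and -2.62 (SE 0.30, adjusted p = 2.87e-05). Ifi44, another interferon-induced gene, had 51.4, 98.5 and 7.5 in the ASC libraries and 523, 296 and 492 in the injured FAP libraries, and rose (log2 fold change 3.58, SE 0.89, adjusted p = 0.00482), with 4.33 without ASC replicate 2 and 2.56 without ASC replicate 3. With any 1 library other than ASC replicate 2 left out, 1 gene of the list was higher, and without ASC replicate 2 there were 4.

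Complement genes were mostly lower in injured FAPs. Of 18 tested genes, 15 were lower, 1 higher and 2 not called, with a median of -2.75, or 11 lower and 2 higher at a common total (-2.05). Of the 14 shared genes 12 were lower and 0 higher. C3, the central component of the cascade, had 515965, 446295 and 495854 in the ASC libraries, 40414, 40567 and 30060.1 in the injured FAP libraries and 63347 and 54639 in the FAP libraries. C4b, a component of the classical pathway, had 82000.2, 54559 and 67049.5 in the ASC libraries and 2200.1, 1868 and 1705 in the injured FAP libraries. C7, a part of the membrane attack complex, had 48101, 34089 and 55161 in the ASC libraries and 2089, 1681 and 1919 in the injured FAP libraries. The ASC libraries were all above the injured FAP libraries, with -3.73 (SE 0.16, adjusted p = 5.14e-08) for C3, -5.13 (SE 0.15, adjusted p = 7.82e-09) for C4b and -4.57 (SE 0.17, adjusted p = 2.71e-08) for C7. C6, of the same complex, was at 59.3, 34 and 79.1 in ASCs and at 0 in all injured FAPs, at least 24.7-fold lower (adjusted p = 4.29e-06). C5ar1, the C5a receptor of myeloid cells, was the 1 higher gene, at 5.3, 0 and 2.5 in the ASC libraries and 16.5, 92.2 and 13 in the injured FAP libraries and at least 10.9-fold higher (adjusted p = 0.00642). Without injured FAP replicate 2 its bound was 3.97 and it fell under the filter, which left none higher, and its fit moved from 3.34 to 2.59 without ASC replicate 2.

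Immediate early and heat shock genes, which respond within minutes to dissociation and stress, were mostly lower in injured FAPs under the authors' scaling. Of 30 tested genes, 20 were lower, 0 higher and 10 not called, with a median of -1.10. Higher and lower genes were 4 and 14 under quantile normalization (median -0.39), 4 and 11 at a common total (-0.40), 1 and 19 under 75th percentile scaling, and 1 and 22 without ASC replicate 1. Fosb, an AP-1 factor, was the most abundant of the list in ASCs. It had 276176, 239474 and 307554 in the ASC libraries and 44391, 41928 and 30831 in the injured FAP libraries. Klf4, a zinc finger factor, had 149806, 147378 and 184014 in the ASC libraries, 20766, 15751 and 16549 in the injured FAP libraries and 26355 and 22619 in the FAP libraries. Egr1, an early growth response factor, had 111363, 145408 and 159995 in the ASC libraries, 28857, 35053 and 25086 in the injured FAP libraries and 161561 and 163772 in the FAP libraries. No injured FAP library reached the lowest ASC library, with log2 fold changes of -2.82 (SE 0.17, adjusted p = 3.24e-07), -3.18 (SE 0.15, adjusted p = 7.06e-08) and -2.22 (SE 0.18, adjusted p = 2.06e-06). Atf3, a stress-induced factor, fell from 19224, 28621 and 35931 to 3710.5, 3219 and 4228 (log2 fold change -2.87, SE 0.21, adjusted p = 1.02e-06). Whether digestion brought about these levels was not tested.

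Genes of cell division rose without exception. All 30 tested genes were higher in injured FAPs (100% against 25.0% over all genes), with a median of 4.66. All lay without overlap, as did 72.4% of all tested genes, and the 29 shared genes were all higher. Mki67, the Ki-67 protein of cycling cells, had 150.2, 334 and 418 in the ASC libraries, 9381, 10089.5 and 9774 in the injured FAP libraries and 175 and 322 in the FAP libraries. Top2a, the topoisomerase of mitotic chromosomes, had 109, 205 and 272 in the ASC libraries and 6352, 6840.0 and 7029 in the injured FAP libraries. Cdk1, the kinase that starts mitosis, had 35.6, 44.2 and 36.4 in the ASC libraries, 1522, 1488 and 1713 in the injured FAP libraries and 21.9 and 43.3 in the FAP libraries. The injured FAP libraries stood far above all ASC libraries, with 5.14 (SE 0.33, adjusted p = 5.49e-07) for Mki67, 5.20 (SE 0.43, adjusted p = 2.68e-06) for Top2a and 5.31 (SE 0.23, adjusted p = 4.51e-08) for Cdk1. Aurkb, a kinase of chromosome segregation, rose from 21.1, 37.4 and 41.4 in ASCs to 1434, 1341 and 1319 (log2 fold change 5.37, SE 0.33, adjusted p = 3.59e-07), and Ccna2, the cyclin of S phase and G2, from 92.2, 73.6 and 142 to 3182, 3279.7 and 3316 (log2 fold change 5.03, SE 0.35, adjusted p = 8.27e-07).

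DNA replication genes rose nearly as widely. Of 39 tested genes, 38 were higher and 1 was not called, with a median of 3.37. Mcm6, a subunit of the replicative helicase, had 257, 734 and 339 in the ASC libraries, 5577, 5325 and 5765 in the injured FAP libraries and 379 and 385 in the FAP libraries. Tk1, the thymidine kinase of S phase, had 15.8, 36.2 and 40.2 in the ASC libraries and 1729, 1567 and 1639.8 in the injured FAP libraries. Pclaf, a PCNA-binding factor outside the list, had 15.8, 56.6 and 18.8 in the ASC libraries and 2136, 1959.9 and 2338 in the injured FAP libraries. Every injured FAP library exceeded every ASC library, with log2 fold changes of 3.79 (SE 0.30, adjusted p = 1.90e-06), 5.80 (SE 0.42, adjusted p = 1.12e-06) and 6.32 (SE 0.40, adjusted p = 5.03e-07). Pcna, the replication clamp, was the most abundant of the list in ASCs. It rose from 2125, 2061 and 1808 to 5925, 5221 and 6183 (log2 fold change 1.53, SE 0.10, adjusted p = 5.67e-07). Rrm2, a subunit of ribonucleotide reductase, rose from 105, 105 and 109 to 2803, 2859.7 and 2979.9 (log2 fold change 4.74, SE 0.19, adjusted p = 3.43e-08), and Uhrf1, which passes on DNA methylation, from 68.5, 218 and 75.3 to 3203, 2928 and 2968 (log2 fold change 4.85, SE 0.36, adjusted p = 1.30e-06). Slbp, which binds the end of histone mRNA, was the 1 gene not called, with 1248, 977 and 1228 in the ASC libraries and 1138, 1062 and 1158 in the injured FAP libraries (log2 fold change -0.03, SE 0.12, adjusted p = 0.819). Whether more cells were dividing or each held more of this RNA cannot be told apart in pooled libraries, and the same holds for every gene given here.

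Promoters of the division and replication genes were read for the sites known to regulate such genes. A promoter was found for 26 of the 30 cell division genes, 32 of the 39 DNA replication genes and 29 of the 34 ribosome biogenesis genes. The motif CCAAT was in 21 of 27 promoters of cell division genes (77.8%) and TTTGAA in 21 (77.8%), against 37.4% and 17.9% of all 32851 promoters and 37.4% and 11.9% of the 13598 promoters of tested genes, on either strand. In DNA replication genes, TTTGGCGC or TTTCGCGC was in 10 of 37 promoters (27.0%) against 0.813% of all and 1.49% of those of tested genes, and in 1 of 27 promoters of cell division genes (3.70%). DNA replication genes held CCAAT in 21 promoters (56.8%) and TTTGAA in 4 (10.8%). The promoters of Cdk1, Hmmr (a hyaluronan receptor of the spindle), Mcm5 and Mcm6 (helicase subunits) are given. Cdk1 and Hmmr were picked for holding CCAAT and TTTGAA, and Mcm5 and Mcm6 for holding E2F forms. They are therefore examples of the sites and do not stand for their lists. All 4 hold CCAAT, Cdk1 and Hmmr hold TTTGAA, and Cdk1, Mcm5 and Mcm6 hold an E2F form, Cdk1 being the 1 of 27. Each sequence runs from 250 bases before to 50 after the start of the gene, on its own strand, from RefSeq (GRCm38.p6), with capitals at CCAAT, the E2F forms and TTTGAA on either strand. They lie at chr10:69352863-69353162 (minus strand), chr11:40733388-40733687 (minus strand), chr8:75109259-75109558 (plus strand) and chr1:128359656-128359955 (minus strand). A run of TTTCGCGCCAAA or its reverse holds both E2F forms in overlap. Hmmr rose from 21.1, 14.7 and 46.4 in ASCs to 906, 1032 and 993 in injured FAPs (log2 fold change 5.26, SE 0.40, adjusted p = 1.60e-06), and Mcm5 from 105, 349 and 104 to 4189, 3694 and 3988 (log2 fold change 4.65, SE 0.38, adjusted p = 2.42e-06). The motif counts are a description and were not tested.
Cdk1: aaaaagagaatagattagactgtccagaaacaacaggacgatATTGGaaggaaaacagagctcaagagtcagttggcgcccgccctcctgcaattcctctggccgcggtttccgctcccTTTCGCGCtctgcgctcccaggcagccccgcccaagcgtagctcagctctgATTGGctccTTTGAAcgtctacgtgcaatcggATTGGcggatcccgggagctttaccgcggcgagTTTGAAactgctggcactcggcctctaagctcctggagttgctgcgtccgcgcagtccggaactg
Hmmr: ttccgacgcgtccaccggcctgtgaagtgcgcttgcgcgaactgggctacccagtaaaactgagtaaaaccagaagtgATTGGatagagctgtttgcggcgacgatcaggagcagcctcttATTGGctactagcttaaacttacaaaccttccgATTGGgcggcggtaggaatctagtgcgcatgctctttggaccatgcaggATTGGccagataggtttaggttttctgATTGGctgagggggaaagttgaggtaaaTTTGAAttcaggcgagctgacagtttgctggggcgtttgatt
Mcm5: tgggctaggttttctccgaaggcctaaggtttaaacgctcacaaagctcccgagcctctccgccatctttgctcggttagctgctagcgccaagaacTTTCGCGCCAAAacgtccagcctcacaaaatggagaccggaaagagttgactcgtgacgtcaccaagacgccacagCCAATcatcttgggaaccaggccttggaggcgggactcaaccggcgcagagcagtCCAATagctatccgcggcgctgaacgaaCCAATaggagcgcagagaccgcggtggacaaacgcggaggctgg
Mcm6: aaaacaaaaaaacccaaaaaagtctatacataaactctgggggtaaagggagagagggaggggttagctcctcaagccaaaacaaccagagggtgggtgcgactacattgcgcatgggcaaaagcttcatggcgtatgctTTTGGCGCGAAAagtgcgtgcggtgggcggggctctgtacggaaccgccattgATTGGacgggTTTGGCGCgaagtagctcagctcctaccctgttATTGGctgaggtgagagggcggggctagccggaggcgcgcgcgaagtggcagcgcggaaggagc

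**Figure D4:**
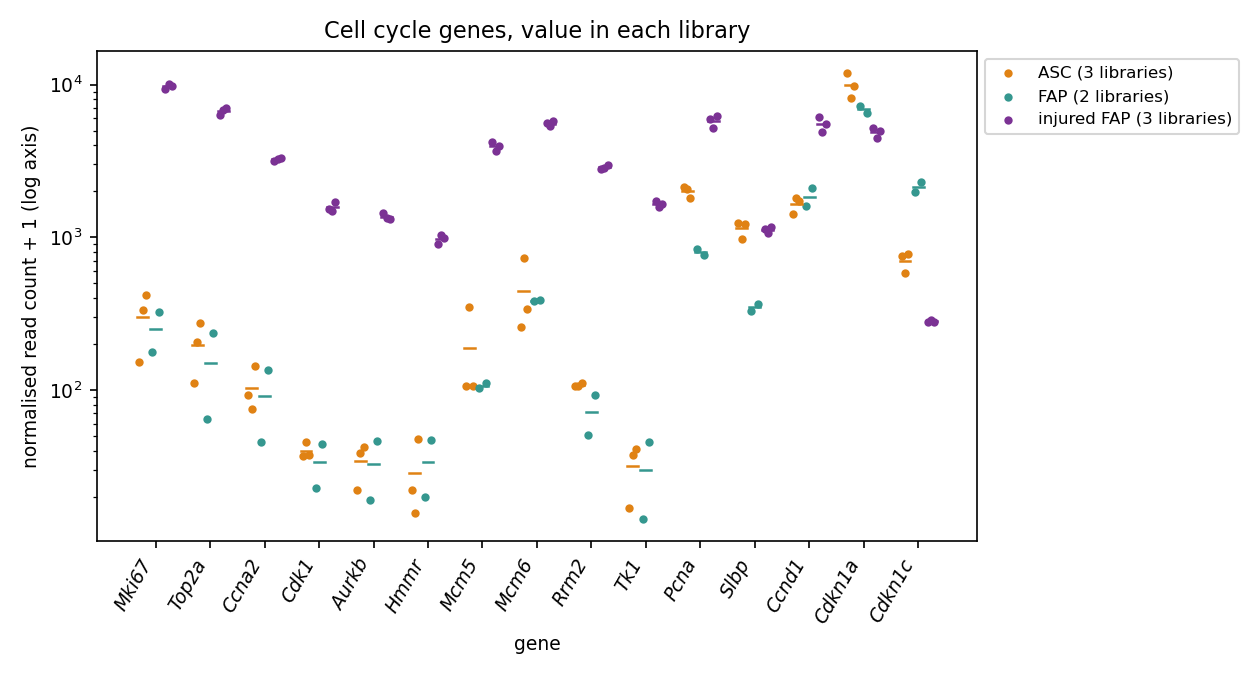
Value plus 1 (vertical axis, normalized reads on a log scale) of cell cycle genes in each library of ASCs, FAPs and injured FAPs, with a dash at the group mean. As log2 fold change of injured FAPs over ASCs, the values are 5.14 for Mki67, 3.79 for Mcm6, 1.74 for Ccnd1 and -1.31 for Cdkn1c.

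D-type cyclins, their kinases and their inhibitors differed by member. Of 13 tested genes of 14, 6 were higher, 3 lower and 4 not called, with a median of 0.68, or 9 and 1 at a common total (1.38). Ccnd1, the cyclin of early G1, had 1414, 1818 and 1722 in the ASC libraries, 6100.4, 4887 and 5495 in the injured FAP libraries and 1593 and 2092 in the FAP libraries. Cdk4, its kinase, had 2128, 2221 and 2038 in the ASC libraries and 5764, 5188 and 5539.6 in the injured FAP libraries. Cdkn2c, an inhibitor of that kinase, had 108, 127 and 141 in the ASC libraries and 799.5, 703 and 786 in the injured FAP libraries. The 3 genes rose without overlap, at 1.74 (SE 0.14, adjusted p = 1.99e-06), 1.37 (SE 0.08, adjusted p = 3.20e-07) and 2.60 (SE 0.15, adjusted p = 2.57e-07). Cdkn1c, the inhibitor p57 of quiescent cells, fell from 752, 579 and 776 in ASCs to 278, 287 and 276, with 1970.3 and 2317 in FAPs (log2 fold change -1.31, SE 0.13, adjusted p = 8.99e-06). Cdkn1a, the inhibitor p21, fell from 11913, 8173 and 9839.6 to 5200.5, 4489 and 4981 (log2 fold change -1.01, SE 0.13, adjusted p = 7.50e-05), and was not called under quantile normalization (-0.54) or scaling to a common total (-0.32).

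Ribosome biogenesis genes showed no common direction under the authors' scaling. Of 34 tested genes, 10 were higher, 6 lower and 18 not called, with a median of 0.31 and 47.1% called beside 51.1% over all genes. At a common total 21 were higher and 0 lower (median 1.01), and without ASC replicate 1 the counts were 14 and 2 (median 0.53). They were 10 and 9 without ASC replicate 2 (0.17), and 8 and 8 without ASC replicate 3 (0.13). Ncl, the nucleolin gene and the most abundant of the list, had 16042, 10736 and 10713 in the ASC libraries, 18726, 20275 and 22088 in the injured FAP libraries and 3356 and 3171 in the FAP libraries. Npm1, a nucleolar chaperone, had 9303, 7831 and 6631 in the ASC libraries and 14638, 16188 and 18209 in the injured FAP libraries. Dkc1, the pseudouridine synthase of box H/ACA particles, had 527, 519 and 441 in the ASC libraries and 1413, 1577 and 1583 in the injured FAP libraries. All 3 were higher in each injured FAP library than in any ASC library, at 0.73 (SE 0.15, adjusted p = 0.00167), 1.05 (SE 0.14, adjusted p = 6.67e-05) and 1.62 (SE 0.11, adjusted p = 6.11e-07). Nop58, of the box C/D particles, had 7086, 5227 and 5606 in the ASC libraries and 2880.3, 2994 and 3535 in the injured FAP libraries. Gnl3, the nucleolar GTPase nucleostemin, had 4538, 2899.5 and 3205 in the ASC libraries and 1638, 1651 and 1773 in the injured FAP libraries. Both fell without overlap (-0.92 and -1.05), but Nop58 was not called under quantile normalization (-0.56) or scaling to a common total (-0.22), nor Gnl3 with the latter (-0.35). The E-box CACGTG was in 7 of 33 promoters of the list (21.2%) against 7.15% of all and 9.73% of those of tested genes, which was not tested.

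Glycolysis genes moved both ways. Of 19 tested genes, 9 were higher, 3 lower and 7 not called, with a median of 0.59, and 14 were higher and 1 lower at a common total (median 1.28). Pkm, the muscle pyruvate kinase, had 8328, 8755 and 7055 in the ASC libraries and 27454, 27765 and 27224 in the injured FAP libraries. Eno1, an enolase, had 2147, 3153 and 1995 in the ASC libraries and 9908, 9956 and 9713 in the injured FAP libraries. Hk2, the inducible hexokinase, was the most abundant of the list in ASCs, and Pkm in injured FAPs. Hk2 had 49869.9, 22008 and 31300.2 in the ASC libraries and 5718, 5089 and 5423 in the injured FAP libraries. In the FAP libraries it had 1126 and 1123. Pkm and Eno1 rose without overlap, at 1.78 (SE 0.10, adjusted p = 2.58e-07) and 2.05 (SE 0.15, adjusted p = 1.12e-06), while Hk2 fell, at -2.59 (SE 0.23, adjusted p = 4.58e-06).

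About as many oxidative phosphorylation genes were higher as were not called. Of 23 tested genes, 12 were higher, 1 lower and 10 not called, with a median of 0.59. The called share was 56.5% beside 51.1% over all genes. At a common total 21 were higher and 0 lower (median 1.29). Atp5b, the beta subunit of ATP synthase and the most abundant of the list, had 9419, 9751 and 8897 in the ASC libraries and 14838, 14304 and 14768 in the injured FAP libraries. Ndufs1, the largest subunit of complex I, had 576, 717 and 744 in the ASC libraries and 1292, 1329.9 and 1435 in the injured FAP libraries. All injured FAP libraries lay above all ASC libraries, at 0.65 (SE 0.09, adjusted p = 8.39e-05) and 1.00 (SE 0.12, adjusted p = 2.98e-05). Ndufa1, a small subunit of complex I, fell from 373, 313 and 390.4 to 208, 189 and 232 (log2 fold change -0.77, SE 0.15, adjusted p = 0.00103), and was at -0.07 and not called at a common total.

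Enzymes of steroid, retinoid and xenobiotic metabolism were mostly lower. Of 33 tested genes of 34, 5 were higher, 24 lower and 4 not called, with a median of -1.62, or 7 and 20 at a common total (-0.92). Of the 27 shared genes 4 were higher and 19 lower. Akr1c18, which inactivates progesterone, had 1384, 1198 and 1409.8 in the ASC libraries, 11, 6.2 and 6.1 in the injured FAP libraries and 10.5 and 16 in the FAP libraries. Inmt, an N-methyltransferase, had 12441, 6191 and 8048 in the ASC libraries and 83.2, 64.3 and 129 in the injured FAP libraries. Gpx3, the secreted glutathione peroxidase and the most abundant of the list, had 144862, 83957 and 119125 in the ASC libraries and 15947, 14930.1 and 13169 in the injured FAP libraries. Each ASC library was above all injured FAP libraries, with log2 fold changes of -7.29 (SE 0.26, adjusted p = 2.01e-08), -6.58 (SE 0.28, adjusted p = 3.82e-08) and -2.95 (SE 0.18, adjusted p = 4.04e-07). Aldh1a2, which makes retinoic acid, rose from 182, 168 and 256 in ASCs to 3059, 3684 and 2808, with 864 and 1033 in FAPs (log2 fold change 3.99, SE 0.17, adjusted p = 3.82e-08). Crabp1, which binds retinoic acid, rose from 5.3, 15.9 and 8.8 to 404, 473 and 400.4, with 36.1 and 24.5 in FAPs (log2 fold change 5.39, SE 0.34, adjusted p = 4.37e-07).

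IGF pathway and imprinted growth genes were more often lower than higher. Of 19 tested genes, 4 were higher, 11 lower and 4 not called, with a median of -0.83, which was -0.13 at a common total (5 higher, 7 lower). Of the 18 shared genes 3 were higher and 11 lower. Igfbp5, an IGF binding protein and the most abundant of the list, had 141287, 96282 and 148158 in the ASC libraries and 25492, 29424 and 24271 in the injured FAP libraries. Igfbp6, which binds IGF2, had 43785, 31390.2 and 36853 in the ASC libraries and 5687, 4448 and 5237 in the injured FAP libraries. H19, an imprinted noncoding RNA, had 648, 561 and 507 in the ASC libraries, 2308, 2417 and 2519 in the injured FAP libraries and 2168 and 1639.8 in the FAP libraries. The binding proteins fell without overlap, at -2.26 (SE 0.18, adjusted p = 2.50e-06) and -2.86 (SE 0.14, adjusted p = 1.12e-07), and H19 rose, at 2.08 (SE 0.13, adjusted p = 3.50e-07). Plagl1, an imprinted zinc finger factor, fell from 9156, 3329 and 6534 to 1263, 1075 and 1554 (log2 fold change -2.19, SE 0.30, adjusted p = 9.35e-05).

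Wnt pathway genes were lower for most members. Of 24 tested genes of 28, 4 were higher, 15 lower and 5 not called, with a median of -1.35, which was -0.65 at a common total (8 higher, 12 lower). Of the 21 shared genes 2 were higher and 14 lower. Lgr5, a receptor of R-spondins, had 1528, 1698 and 1709 in the ASC libraries, 16.5, 10.1 and 9.9 in the injured FAP libraries and 66.6 and 92.2 in the FAP libraries. Wnt10b, a ligand that blocks adipogenesis, had 648, 628 and 939 in the ASC libraries and 25.1, 21.7 and 23.6 in the injured FAP libraries. Sfrp2, a secreted Wnt modulator and the most abundant of the list, had 28921, 25963 and 38086 in the ASC libraries and 3427, 3473 and 2712 in the injured FAP libraries. All 3 were lower in each injured FAP library, at -7.00 (SE 0.22, adjusted p = 8.10e-09), -4.89 (SE 0.20, adjusted p = 3.21e-08) and -3.26 (SE 0.20, adjusted p = 3.54e-07). Rspo2, a ligand of Lgr5, fell from 237, 185 and 306 to 20.4, 13.2 and 13 (log2 fold change -3.88, SE 0.26, adjusted p = 6.77e-07). Sfrp5, another secreted antagonist, rose from 89.6, 97.4 and 43.9 to 565, 369.7 and 564, with 652 and 631 in FAPs (log2 fold change 2.74, SE 0.28, adjusted p = 1.29e-05).

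TGF-beta and BMP genes held strong changes in each direction. Of 26 tested genes of 29, 7 were higher, 16 lower and 3 not called, with a median of -1.03, which was -0.34 at a common total (10 higher, 12 lower). Ltbp2, a matrix protein of microfibrils, had 174, 184 and 142 in the ASC libraries, 16149.8, 17866 and 17308 in the injured FAP libraries and 995 and 1553 in the FAP libraries. Bmp5, a BMP ligand, had 52.7, 52.1 and 50.2 in the ASC libraries, 1559.8, 1734 and 1703 in the injured FAP libraries and 3062 and 2263 in the FAP libraries. Injured FAPs stood above all ASC libraries at both, with 6.68 (SE 0.16, adjusted p = 2.48e-09) for Ltbp2 and 4.98 (SE 0.13, adjusted p = 2.68e-09) for Bmp5. Chrdl1, an antagonist of BMP4, fell from 16317, 11732 and 11239 to 2051, 2028 and 2026 (log2 fold change -2.66, SE 0.13, adjusted p = 1.15e-07).

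Growth factors for vessels, nerve, muscle and epithelium were lower for the larger part. Of 25 tested genes of 27, 5 were higher, 14 lower and 6 not called, with a median of -0.81, which was -0.11 at a common total (7 higher, 11 lower). Of the 22 shared genes 3 were higher and 14 lower. Vegfa, the endothelial growth factor and the most abundant of the list, had 19739, 10908 and 13243 in the ASC libraries and 3276, 3030.2 and 3347 in the injured FAP libraries. Fgf10, a growth factor of preadipocytes and epithelium, had 345, 420.2 and 463 in the ASC libraries, 13.3, 14.7 and 14.5 in the injured FAP libraries and 78.9 and 92.2 in the FAP libraries. Both were lower in every injured FAP library, at -2.14 (SE 0.18, adjusted p = 3.20e-06) and -4.75 (SE 0.19, adjusted p = 3.11e-08). Pdgfa, a ligand of Pdgfra, rose from 55.3, 45.3 and 84.1 in ASCs to 599, 577 and 593, with 597 and 588 in FAPs (log2 fold change 3.29, SE 0.20, adjusted p = 3.30e-07).

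Markers of other cell types were also present in the sorted libraries, and part of them differed. The 14 endothelial markers summed to 7384, 5936 and 7771 in ASCs, 2436, 2588 and 2045 in injured FAPs, 7477 and 5260.0 in FAPs and 400308 in the CD31+CD45+ library. Of 14 tested, 8 were higher, 2 lower and 4 not called, with a median of 1.79 (10 and 1 at a common total, 2.47), and of the 10 shared genes 5 were higher and 2 lower. None was at 0 in ASCs or injured FAPs, while 4 and 5 were at 0 in the FAP libraries. Without Tek, which was lower, the sums turned round, with 1398, 1095 and 1071 in ASCs and 2041, 2222 and 1680.3 in injured FAPs. Tek, the angiopoietin receptor and the most abundant in ASCs, had 5986, 4841 and 6699.9 in the ASC libraries and 395, 367 and 365 in the injured FAP libraries. Cdh5, the cadherin of endothelial junctions and the most abundant in injured FAPs, had 122, 87.2 and 59 in the ASC libraries and 649, 663 and 537 in the injured FAP libraries. Tek fell (log2 fold change -3.94, SE 0.12, adjusted p = 7.98e-09) and Cdh5 rose (log2 fold change 2.82, SE 0.30, adjusted p = 1.47e-05), both without overlap. Erg, an endothelial factor, had 15.8, 2.3 and 1.3 in the ASC libraries and 46.3, 47.3 and 45 in the injured FAP libraries (log2 fold change 3.24, SE 0.67, adjusted p = 0.00151), with 4.12 without ASC replicate 1. The part of endothelial cells in the result was not tested.

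Among ASC, FAP and injured FAP libraries, leukocyte markers were highest in injured FAP replicate 2. The 15 markers summed to 696, 579 and 585 in ASCs, 889, 3827 and 783 in injured FAPs, 292 and 546 in FAPs and 36058 in the CD31+CD45+ library, with Cd68 as the most abundant in 4 of the 6 libraries compared and Cd3e at 0 in all 6. Of 12 tested, 8 were higher, 2 lower and 2 not called, but 5 of the 12 passed the filter through injured FAPs only. Of the 7 shared genes 3 were higher and 2 lower. Lyz2, the lysozyme of myeloid cells, had 40.8, 26 and 30.1 in the ASC libraries and 142, 725 and 109 in the injured FAP libraries. Itgam, which encodes CD11b, had 5.3, 0 and 0 in the ASC libraries and 16.5, 251 and 16.8 in the injured FAP libraries. Both were highest in injured FAP replicate 2, with 2.78 (SE 0.60, adjusted p = 0.00203) for Lyz2 and a fold of at least 25.6 for Itgam (adjusted p = 0.00324). Without that replicate Lyz2 was at 1.94, the bound of Itgam was 4.49, Itgam and Ptprc fell under the filter, and the list held 4 higher and 1 lower gene of 8 tested. The fit of Itgam, 4.54 and no bound, moved to 5.42, 5.18 and 5.17 without ASC replicate 1 and injured FAP replicates 1 and 3. With any 1 library left out, 0 or 1 leukocyte gene was lower, and 0 under 75th percentile scaling, a common total, edgeR and DESeq2. The part of leukocytes in these values was not tested.

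Muscle fibre and satellite cell markers were low in ASCs. Fibre markers summed to 256, 204 and 264 in ASCs, 395, 429 and 324 in injured FAPs and 1172 and 1319.9 in FAPs, with 4 higher, 1 lower and 3 not called of 8 tested of 16. The calls came from genes that passed the filter through 1 group, 4 through injured FAPs and 1 through ASCs, and the 3 shared genes were not called. Acta1, the skeletal muscle actin, had 11.9, 7.9 and 8.8 in the ASC libraries and 92.6, 89.9 and 69.4 in the injured FAP libraries, and rose (log2 fold change 3.02, SE 0.23, adjusted p = 1.66e-06). Ckm, the muscle creatine kinase, was at 1.3, 2.3 and 1.3 in the ASC libraries and 44.7, 44.2 and 30.5 in the injured FAP libraries, at least 10.7-fold higher (adjusted p = 3.67e-06). The counts moved to 5 higher and 2 lower without ASC replicate 2, and to 2 lower under quantile normalization. Satellite cell markers summed to 775, 649 and 1042 in ASCs and 1306, 1231 and 1239 in injured FAPs, with 4 higher and 2 not called of 6 tested of 11, 3 of which passed through injured FAPs only (6 higher at a common total), and with Pax7 at 0 in all ASC libraries. Chodl, a chondrolectin of myoblasts, had 4, 4.5 and 1.3 in the ASC libraries, 224, 174 and 195 in the injured FAP libraries and 219 and 274 in the FAP libraries, at least 53.4-fold higher (adjusted p = 3.05e-07). Myod1, the myoblast factor, had 5.3, 3.4 and 0 in the ASC libraries and 26.7, 19.4 and 14.5 in the injured FAP libraries, at least 5.45-fold higher (adjusted p = 0.00367), with a fit of 2.77, or 1.97 without ASC replicate 3. Without injured FAP replicate 1 or 2 it fell under the filter and 2 genes of the list were higher. All 11 genes had a higher mean in injured FAPs. The part of muscle cells in this was not tested.

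Pericyte and smooth muscle markers were mostly higher, and Schwann cell markers were called in each direction. The former summed to 6329.9, 4097 and 5138 in ASCs, 11622, 11412 and 11774 in injured FAPs and 29346 and 26067 in FAPs, with 9 higher, 2 lower and 2 not called of 13 tested of 15 (median 1.70, or 11 and 1 at a common total, 2.39), 8 higher and 2 lower of the 12 shared, and with Higd1b at 0 in all ASC libraries. Cspg4, the proteoglycan NG2, had 216, 185 and 212 in the ASC libraries, 4655, 3881 and 4406 in the injured FAP libraries and 3666 and 4176 in the FAP libraries. Rgs5, a pericyte regulator of G proteins, had 100.1, 60 and 40.2 in the ASC libraries, 1718, 2018 and 2091 in the injured FAP libraries and 6148 and 4583 in the FAP libraries. Abcc9, a potassium channel subunit of pericytes and the most abundant in ASCs, had 3902, 2402 and 3182 in the ASC libraries and 606, 659.5 and 742 in the injured FAP libraries. Cspg4 and Rgs5 rose without overlap, at 4.39 (SE 0.11, adjusted p = 2.48e-09) and 4.93 (SE 0.27, adjusted p = 1.82e-07), and Abcc9 fell, at -2.22 (SE 0.16, adjusted p = 1.32e-06). With 1 library left out the list held 6 to 9 higher and 1 or 2 lower genes. Schwann cell markers summed to 1345, 1031 and 983 in ASCs and 919, 612 and 969 in injured FAPs, with 2 higher, 2 lower and 5 not called of 9 tested of 10 (median 0.70, 44.4% called beside 51.1% over all genes), 1 higher and 2 lower of the 7 shared, and 6 higher and 2 lower at a common total (1.35). Mbp, a myelin protein and the most abundant in ASCs, fell from 739, 631 and 625 to 184, 132 and 194 (log2 fold change -1.98, SE 0.20, adjusted p = 1.01e-05), and Prx, of the myelin sheath, rose from 86.9, 55.5 and 51.5 to 151, 142 and 203 (log2 fold change 1.36, SE 0.22, adjusted p = 3.36e-04). Without Mbp the sums were 606, 399.8 and 358 against 734, 480.5 and 775. With 1 library left out 1 to 3 Schwann cell genes were higher. The parts of these cells in the result were not tested.

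Epithelial, mesothelial, and red cell and platelet markers were scarce. Epithelial markers summed to 1473, 96.3 and 495 in ASCs and 69.8, 48.8 and 52.6 in injured FAPs, with 0 higher, 3 lower and 3 not called of 6 tested of 10, 4 of which passed the filter through ASCs only, and with Krt5, Krt14 and Krt15 at 0 in all injured FAPs. Krt8, a simple keratin, had 484, 0 and 137 in the ASC libraries and 0, 0 and 0.8 in the injured FAP libraries, and was high in 2 ASC libraries only, with overlap, at least 89-fold lower in injured FAPs (adjusted p = 0.0278). Its call was lost when any 1 library other than ASC replicate 2 was left out. Its bound was 29.5, 134 and 104 without ASC replicate 1, 2 and 3, and its fit, -5.07, moved to -3.28, -7.74 and -4.19. The list held 6 lower genes without ASC replicate 2 and with edgeR and DESeq2, and 1 without ASC replicate 3 or injured FAP replicate 2 or 3. Msln, of mesothelium, was the 1 tested gene of 6, with 10.5, 4.5 and 11.3 in the ASC libraries and 36.1, 38.7 and 54.9 in the injured FAP libraries and a rise of 2.24 (SE 0.38, adjusted p = 4.49e-04), while the 5 others had a lower mean in injured FAPs. The mesothelial list summed to 36.9, 9.1 and 18.8 and 42.4, 42.6 and 58. Pf4, a platelet chemokine, had 2.6, 2.3 and 1.3 in the ASC libraries and 33.7, 164 and 33.6 in the injured FAP libraries, at least 20.8-fold higher (adjusted p = 1.94e-04), with a fit of 4.28, or 3.53 and a bound of 9.08 without injured FAP replicate 2. The platelet and red cell list held 2 higher and 1 lower gene of 3 tested of 9, the 2 higher having passed through injured FAPs only. The lower gene, Itga2b, was at -1.15, or -0.46 and not called at a common total. The list summed to 385, 668 and 467 in ASCs against 282, 468 and 282 in injured FAPs. Without Itga2b the sums were 13.2, 4.5 and 3.8 against 64.3, 246 and 68.6. The Hba and Hbb genes of the list were at 0 in every library, also in CD31+CD45+ cells, where Alas2 of the same list was at 5666. Their zeros therefore do not serve as a sign of few red cells. The parts of these cells in the result were not tested.

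**Figure D5:**
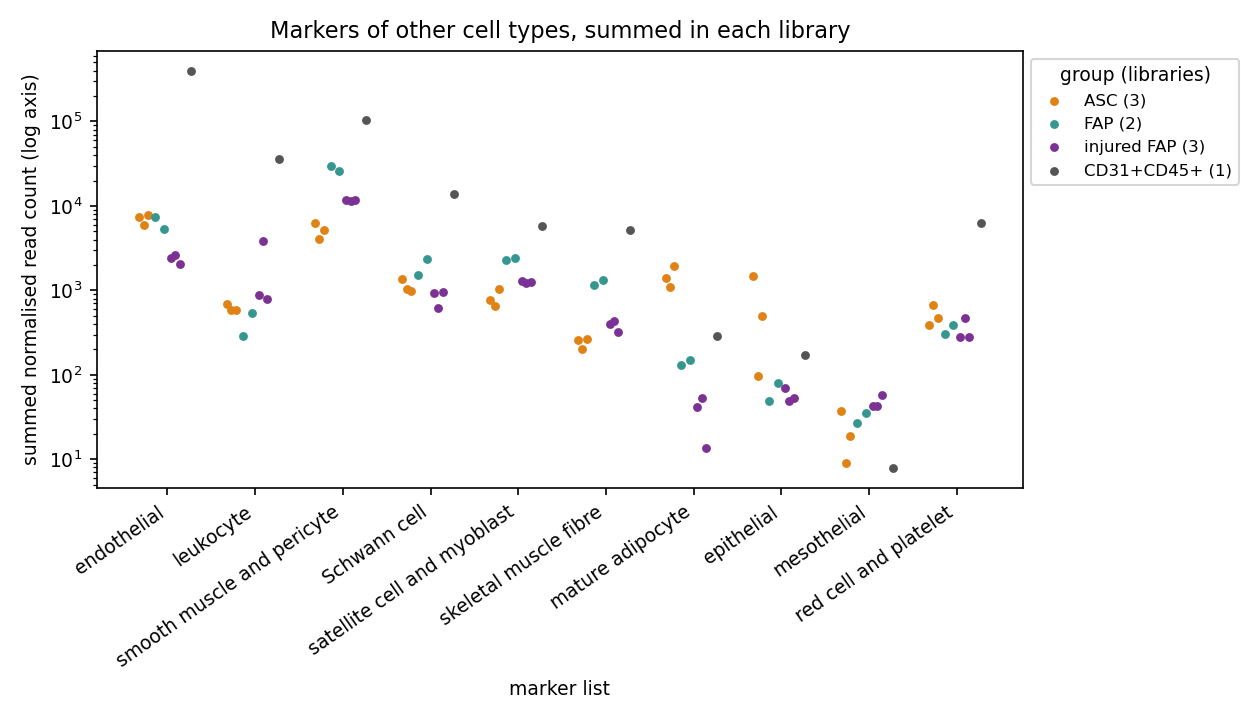
Summed value of the markers of other cell types (axis, normalized reads on a log scale) in each library, with 1 point per library and list. Endothelial markers reached 400308 in the CD31+CD45+ library against 7384, 5936 and 7771 in ASCs, where Tek made up most of the sum, and 2436, 2588 and 2045 in injured FAPs.

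Sex-linked genes were read because all animals were male. Of 4 tested genes of 5, 0 were higher, 3 lower and 1 not called, with a median of -0.81, which stood at -0.11 at a common total (1 higher, 1 lower). Ddx3y, a Y-linked RNA helicase, was read in every library, with 3206, 3065 and 3416 in the ASC libraries, 1131, 1042 and 1497 in the injured FAP libraries and 1261 and 1220.2 in the FAP libraries, and fell without overlap (log2 fold change -1.42, SE 0.13, adjusted p = 5.17e-06).

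Large rises outside the lists included Hmga2 and Inava. Hmga2, a chromatin protein of growing mesenchyme, had 0, 23.8 and 0 in the ASC libraries, 665, 421 and 619 in the injured FAP libraries and 0 and 1.9 in the FAP libraries. Inava, an activator of innate signalling, had 6.6, 7.9 and 1.3 in the ASC libraries and 308, 351 and 362 in the injured FAP libraries. Both rose without overlap, with 7.58 (SE 1.06, adjusted p = 1.14e-04) for Hmga2 and 5.99 (SE 0.48, adjusted p = 2.16e-06) for Inava. Hmga2 moved to 6.81 without ASC replicate 1 or 3 and to 9.13 without ASC replicate 2, and Inava to 5.37 without ASC replicate 3. Chil1, a chitinase-like protein, was at 1.3, 0 and 1.3 in the ASC libraries and 191, 288 and 236 in the injured FAP libraries, at least 64.3-fold higher (adjusted p = 1.97e-07). Uts2r, the urotensin receptor, was at 0, 2.3 and 5 in the ASC libraries, 219.7, 294 and 201.4 in the injured FAP libraries and 506 and 714 in the FAP libraries, at least 64.3-fold higher (adjusted p = 2.72e-06), with a fit of 6.45, or 5.73 without ASC replicate 1.

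Large falls outside the lists included receptors of interleukins. Il1r2, the decoy receptor of interleukin 1, had 13146, 11610.4 and 15314 in the ASC libraries, 148, 152 and 140.3 in the injured FAP libraries and 290.0 and 207 in the FAP libraries. Il18r1, a receptor of interleukin 18, had 568, 429 and 943 in the ASC libraries and 3.1, 2.3 and 1.5 in the injured FAP libraries. Serpina3c, a serine protease inhibitor of adipose stroma, had 2088, 1965 and 2405 in the ASC libraries and 32.2, 28.7 and 25.2 in the injured FAP libraries. All 3 were high in each ASC library and low in each injured FAP library, at -6.49 (SE 0.14, adjusted p = 1.86e-09), -7.55 (SE 0.35, adjusted p = 6.75e-08) and -6.18 (SE 0.14, adjusted p = 1.86e-09). Nptx2, a pentraxin, fell from 6404, 2309 and 5387 to 75.3, 43.4 and 67.1 (log2 fold change -6.13, SE 0.39, adjusted p = 5.12e-07). Tspan8, a tetraspanin, was at 138, 247 and 259.9 in ASCs and at 0 in all injured FAPs, at least 92.6-fold lower (adjusted p = 3.17e-06). Tdo2, which degrades tryptophan, was at 419, 409 and 539 in the ASC libraries and 1.6, 0 and 3.1 in the injured FAP libraries, at least 196-fold lower (adjusted p = 3.02e-07).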

How the data were processed

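The signal is the authors' deposited table of normalized counts, read as deposited, and no reads were aligned or counted again here. The tools the authors list are fastq_illumina_filter 0.1 and FastQC 0.11.9 for read quality, HISAT2 2.2.1 for alignment to mm10 with UCSC annotation, Subread 2.0.1 for counting and DESeq2 1.34.0 for normalization. Strand and multimapper settings are not stated, so values of near-identical gene copies such as Npm1 are uncertain. Multiplying each library by the size factor recovered from its spacing of values gave whole read counts for 100% of values, within 0.1. The table has 2 empty columns, which were dropped. Cells of 3 animals were pooled and the replicates are called biological, but whether each had its own pool is not spelled out.

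Genes were tested in R 4.3.3 with limma 3.58.1 (trend, on log2 of value plus 1) in a fit with 8 libraries (3 ASC, 3 injured FAP and 2 FAP), with Benjamini-Hochberg adjustment over 13408 genes. On the recovered reads edgeR 4.0.16 called 6932 genes and DESeq2 1.42.0 called 6814. The members and gene lists were chosen with earlier results of these data known. Scaling to a common total and leaving out genes highest in the CD31+CD45+ library were added after the data were seen. Genes are named by rule: the 15 largest rises and falls among called genes that do not overlap and have a mean of 100 or more, the sorting markers of the study, and in each list the 3 largest called changes in each direction and the 3 most abundant genes, and not all of these are printed. Dpp4, Hmmr, Mcm5 and Slbp were chosen after their values were seen.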

Additional observations from a re-analysis of the deposited data

Results flagged for a closer look

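The CD31+CD45+ library, which the comparison does not use, held signal above the other libraries in 3 readings. Its leukocyte markers summed to 36057 and its endothelial markers to 400308. Of the tested genes, 3745 were higher in it than in each of the 8 other libraries.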

How the results depend on the processing

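Calls stood at 3351 higher and 3504 lower in the fit used, and at 7287 and 1699 with scaling to a common total. With a replicate block by library number they were 3329 and 3471 (6800 called), and no call of a named gene changed. For libraries with the same number, the correlation after removal of group means was 0.000304, -0.00458 and 0.0193, all under 0.1. Not every library correlated best with its own number. With so few libraries this cannot tell whether those of the same number shared a preparation. Leaving out 1 library gave 6554 to 7147 called, 3151 to 3542 higher and 3352 to 3605 lower. When genes with their top value in CD31+CD45+ cells were left out, 5347 of 9663 were called, 2526 higher and 2821 lower. The distance between groups, within ASCs and within injured FAPs was 1.30, 0.444 and 0.261 with a pseudocount of 8, and 1.41, 0.460 and 0.219 with a mean of at least 50. Without a filter the distances within the groups were 0.771 and 0.550. Leaving out 1 library gave 1.47 to 1.58 between groups, 0.467 to 0.645 within ASCs and 0.287 to 0.375 within injured FAPs. The direction of Col3a1 turned under quantile normalization (0.0713). Slbp, which was not called, was at 0.0550 under quantile normalization, 0.0877 under 75th percentile scaling, 0.67 with scaling to a common total, 0.0437 with edgeR and -0.15 to 0.0304 with 1 library left out. The cause of these shifts was not tested.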

Other observations

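At 13 genes all ASC libraries were at 0 and all injured FAP libraries at 3 reads or more, and at 11 genes the reverse held. Of the genes not tested, 7356 were at 0 in all 6 libraries and 5450 were under the filter.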
